A study of Mus musculus with 6 samples.

Results

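Keratins are the proteins of the intermediate filaments of epithelial cells. On these arrays the family was taken as every non-control probe whose gene name is Krt followed by a digit, without the keratin-associated proteins, which gave 40 probes of 39 genes among 20868 probes and 19594 gene names. By the positions in the scanner files, 23 of the genes lie on chromosome 11, which holds the type I cluster, and 16 on chromosome 15, which holds the type II cluster. Krt18, a type I keratin, is the known exception that lies beside the type II gene Krt8 on chromosome 15. The RNA came from HACA cells, a mouse cell line that the labels describe no further. The 3 kinds of cells were shSnail cells, with a short hairpin against Snail, the transcriptional repressor encoded by Snai1; shLoxl2 cells, with a hairpin against the lysyl oxidase-like enzyme Loxl2; and shGFP control cells, with a hairpin against GFP. All of them thus carried a hairpin, and the labels do not say how many clones or cultures stand behind each. Of the 6 arrays, 2 held shSnail RNA, labelled both times with the red dye Cy5, and 4 held shLoxl2 RNA, whose 2 replicate numbers were each hybridised once in Cy5 and once in Cy3. Every array had shGFP RNA in its other channel, so n = 2 in each silenced group and shGFP counted as 1 control sample, whose own spread the tests against shGFP leave out. The fit of shSnail over shGFP took the 4 shLoxl2 arrays singly to measure the dye effect, so its spread also holds differences between hybridisations of 1 RNA. Since nothing says that the 2 samples of a group were separate cultures, the p-values measure the spread between these samples and arrays, which may be technical.

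A keratin filament is built from obligate pairs of a type I (acidic) and a type II (basic) keratin, and which pair a cell makes depends on the kind of epithelium and its state. In the epidermis, Krt5 and Krt14 are the pair of the dividing basal layer, Krt1 and Krt10 replace them in the suprabasal layers as cells differentiate, and Krt6, Krt16 and Krt17 are made in wounded, inflamed or hyperproliferating epidermis. Krt8 and Krt18 form the filaments of simple epithelia, Krt4 and Krt13 those of stratified mucosa, and a large group serves hair and its sheath.

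Snail family repressors are known to bind the E-box letters CAGGTG, which read CACCTG on the other strand. The promoters of 3 keratin genes are shown because these were the ones that passed the test between shSnail and shGFP cells and had a window in the RefSeq promoter table (GRCm38.p6). Each line runs 5′ to 3′ on the gene's strand from 250 bases before the transcript start to the base before it, with the E-box in capitals. The windows are chr11:99493121-99493370 on the minus strand for Krt23, chr11:99389365-99389614 on the minus strand for Krt10 and chr15:102004343-102004592 on the minus strand for Krt8.
Krt23: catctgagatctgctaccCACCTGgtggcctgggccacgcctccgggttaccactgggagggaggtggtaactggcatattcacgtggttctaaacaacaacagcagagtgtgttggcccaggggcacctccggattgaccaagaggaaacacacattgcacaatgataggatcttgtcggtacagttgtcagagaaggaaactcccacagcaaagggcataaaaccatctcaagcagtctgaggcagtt
Krt10: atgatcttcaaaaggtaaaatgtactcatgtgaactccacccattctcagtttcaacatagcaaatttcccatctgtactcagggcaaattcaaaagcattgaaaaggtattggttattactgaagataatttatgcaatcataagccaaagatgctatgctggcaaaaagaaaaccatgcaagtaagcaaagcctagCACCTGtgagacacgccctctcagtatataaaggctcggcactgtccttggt
Krt8: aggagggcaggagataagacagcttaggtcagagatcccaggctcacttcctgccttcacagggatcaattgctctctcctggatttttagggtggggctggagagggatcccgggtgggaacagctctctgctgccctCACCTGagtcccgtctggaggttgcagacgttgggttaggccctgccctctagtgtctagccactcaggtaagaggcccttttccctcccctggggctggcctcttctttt
The E-box begins at -232 in the Krt23 window, at -52 in that of Krt10 and at -111 in that of Krt8. Of these genes, Krt10 and Krt8 were higher and Krt23 was lower in shSnail than in shGFP cells, as given below, so the letters stood in windows of genes that moved both ways. Searched on both strands, CAGGTG or CACCTG was found in 8 of 28 windows of 27 keratin genes (28.6%), against 17.2% of all 32851 windows of that length. The other 5 genes with a match were Krt5, Krt7, Krt18, Krt71 and Krt79. Of these Krt79 was too dim to be tested, and the others did not pass between shSnail and shGFP cells with the dye effect removed. A match is a string of letters and not a measured binding site. Snai2, another gene of the Snail family, was itself lower than in shGFP cells in both silenced groups. It was at -1.60 in shSnail (SE 0.27, limma adjusted p = 0.0146) and -0.97 in shLoxl2 cells (SE 0.18, limma adjusted p = 0.0226). Whether either factor acts on these windows was not tested.

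Values are log2 ratios of the silenced RNA over shGFP RNA, after normexp background correction and loess normalization, with the sign turned so that a positive value is higher in the silenced cells. A gene was called at an adjusted p below 0.05 in limma, adjusted over all 19752 probes tested. The red channel was well above background at 33 to 37 of the 40 keratin probes on each array, and the green channel (Cy3) at 18 to 26. Of the 39 genes, 36 had a probe bright enough to be tested, with Krt24, Krt79 and Krt82 left out. Precision is limited by having so few arrays. The dye effect, meaning what stays in a ratio when the dyes are swapped, had an SD of 0.46 over all tested probes and ran from -1.14 (Krt85) to 1.14 (Krt42) among the keratins. For shLoxl2 it cancels in a dye-swapped pair. For shSnail it was removed as measured on the shLoxl2 arrays, and values with no correction or with the effect scaled to its slope of 0.453 on the shSnail arrays are given where they matter. Scan day and extraction protocol coincided with the silenced group, so their part in the difference between shSnail and shLoxl2 cells cannot be told apart from the hairpin. The Snai1 probe was well above background in 0 of 2 silenced and 0 of 2 control channels of the shSnail arrays, so it cannot check the label. The Loxl2 probe was well above background in 2 of 4 silenced and 1 of 4 control channels of the shLoxl2 arrays and was at 0.11 (limma adjusted p = 0.59), so the arrays labelled shLoxl2 showed no fall of their target, on signals that were mostly too dim to measure. In shSnail cells Loxl2 was at 0.27 with the dye effect removed (limma adjusted p = 0.479) and at -0.83 with no correction (limma adjusted p = 0.0243). Of the keratinocyte markers, 11 of 12 were detected (well above background in either channel) on all 6 arrays, as were 9 of 11 fibroblast, 5 of 6 melanocyte, 4 of 7 leukocyte, 3 of 5 endothelial and 2 of 5 muscle markers, on arrays where 85.2% to 92.3% of all probes had a red signal that passed the same limit.

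Between shSnail and shGFP cells, 7 of the 36 keratin genes were called (19.4%), 4 higher and 3 lower, where 15.2% of all probes were called (5.88% higher and 9.31% lower). With each shLoxl2 number entered once, as 1 value of the dye effect, 9 were called, the same 7 among them, where 25.1% of all probes were. Between shLoxl2 and shGFP cells, 5 were called (13.9%), 4 higher and 1 lower, where 13.9% of all probes were called (8.08% higher and 5.85% lower). Neither share stands far from the background, and the median keratin moved by -0.09 in shSnail and 0.13 in shLoxl2 cells, against -0.04 and -0.01 over all probes. Set directly against each other on the 4 Cy5 arrays, shSnail and shLoxl2 cells differed at 9 keratins (25%), 1 higher and 8 lower in shSnail, where 12.8% of all probes were called (4.24% higher and 8.56% lower). The 2 shSnail values lay wholly above or below the 2 shLoxl2 values on those arrays at 24 keratins, as they did at 62.1% of all probes. In total 11 genes were called in at least 1 of the 3 comparisons, which share the shGFP RNA. With either shSnail array left out, shSnail is 1 sample that is assumed to vary like the other arrays of the fit, and 1 keratin stayed called against shGFP (Krt23) and 1 against shLoxl2 (Krt16). The sign of every called fold stayed the same in those fits, at 0.732 to 1.27 times its log2 value against shGFP and 0.802 to 1.2 times against shLoxl2. Of the called genes, Krt8 rests on shGFP signals that were not well above background and Krt80, against shLoxl2, on shSnail signals that were not. For Krt85 the shGFP channel was well above background on 1 of the 2 shSnail arrays, and the green channel on 3 of 6 arrays. Without shLoxl2 replicate 2 the counts were 14 for shSnail over shGFP, 8 for shLoxl2 over shGFP and 14 for shSnail over shLoxl2. The 5 genes called between shLoxl2 and shGFP cells stayed called with any 1 sample left out.

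**Figure D1:**
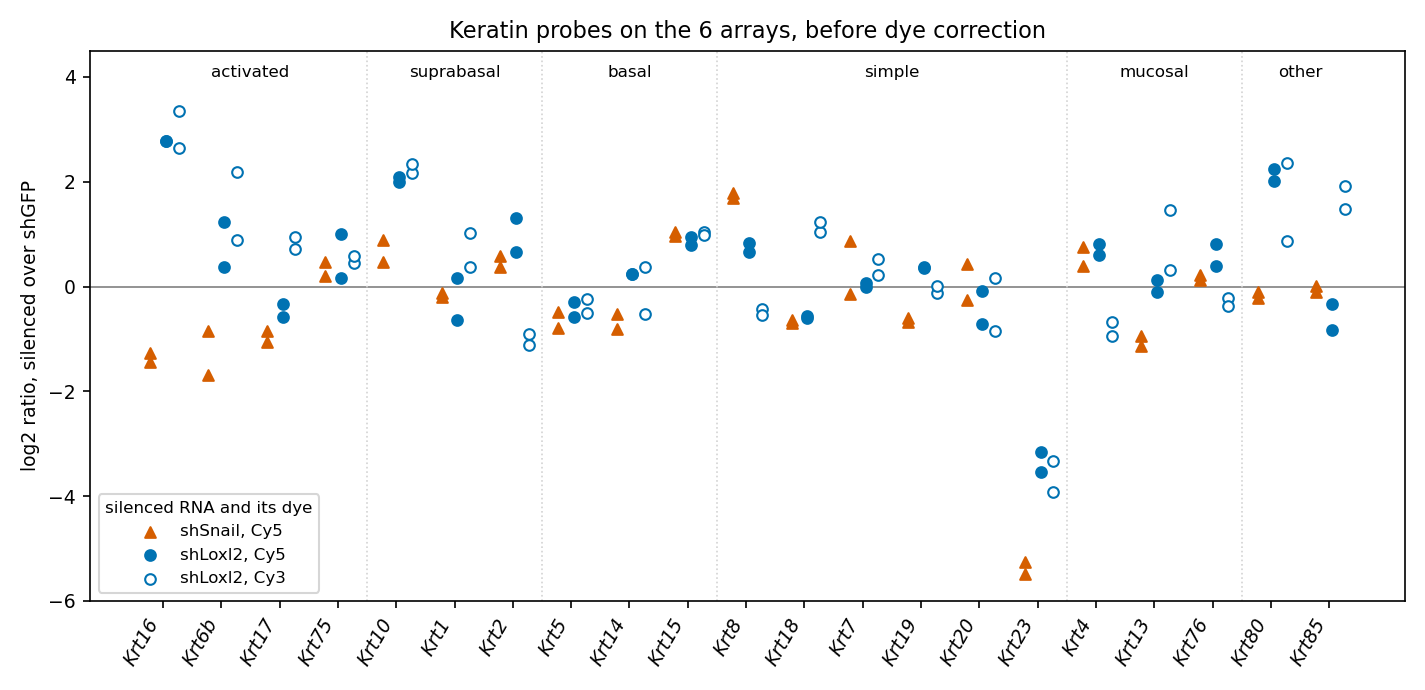
The log2 ratio of silenced over shGFP RNA is plotted for 21 keratin genes on each of the 6 arrays, before dye correction, with shSnail as triangles, shLoxl2 in Cy5 as filled circles and shLoxl2 in Cy3 as open circles. Krt23 lies far below 0 on all 6 arrays, Krt16 lies above 2.6 on the 4 shLoxl2 arrays and below -1.2 on the 2 shSnail arrays, and Krt85, Krt18 and Krt2 change sign with the dye.

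The keratins of activated epidermis held the widest contrast. Krt16, the type I keratin of wounded and hyperproliferating epidermis (chromosome 11, 100062181 to 100062240, mm8), was at -1.27 and -1.43 on the shSnail arrays, at 2.77 and 2.78 on the shLoxl2 arrays in Cy5 and at 2.65 and 3.35 on those in Cy3. The silenced groups thus lay on opposite sides of shGFP with no overlap. Krt16 fell 2.36-fold in shSnail cells (log2 -1.24, SE 0.22, limma adjusted p = 0.017) and rose 7.40-fold in shLoxl2 cells (log2 2.89, SE 0.13, limma adjusted p = 0.000582, n = 2 each). The silenced channel was saturated on both shLoxl2 arrays in Cy5, and 2 of the 4 shLoxl2 values are therefore clipped. The direct comparison rests on those 2 arrays alone and gives only a bound. Between the silenced channels, with arrays scaled to each other and not divided by shGFP, the shSnail signal was at least 21.9-fold below that of shLoxl2. The shGFP channel was also lower on the shSnail arrays, at 11.86 and 11.94 against 12.19 and 12.25 (normalized log2 signal). Relative to shGFP, the fitted ratio was at -4.13 in log2 units, or 17.5-fold (limma adjusted p = 0.00237).

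Krt6b, a type II partner of Krt16 (chromosome 15, 101507053 to 101507112, mm8), was at -1.68 and -0.86 on the shSnail arrays, at 0.38 and 1.23 on the shLoxl2 arrays in Cy5 and at 0.88 and 2.19 on those in Cy3. The groups did not overlap, but the arrays of each group lay far apart. The difference between shSnail and shLoxl2 cells passed at -2.07 (SE 0.40, limma adjusted p = 0.0347), while neither comparison with shGFP did (log2 -0.90, limma adjusted p = 0.231, in shSnail and 1.17, limma adjusted p = 0.0562, in shLoxl2). The shLoxl2 value was near the threshold and hung on the sample, at 1.71 without shLoxl2 replicate 1 (limma adjusted p = 0.0345) and at 0.63 without replicate 2 (limma adjusted p = 0.204). It passed at the same 1.17 with the stricter filter on dim probes (limma adjusted p = 0.0476), with the 4 shLoxl2 arrays fitted with a dye term (limma adjusted p = 0.0313) and with the shSnail values left out of the fit (limma adjusted p = 0.00468). Krt6a, its near-identical copy, has no probe among the members, and whether the Krt6b probe also reads Krt6a RNA was not tested. Krt17, a type I keratin induced in wounds and made in hair follicles, was at -0.85 and -1.07 on the shSnail arrays, at -0.34 and -0.57 on the shLoxl2 arrays in Cy5 and at 0.73 and 0.94 on those in Cy3. Its sign in shLoxl2 cells followed the dye, its red channel was saturated on all 4 shLoxl2 arrays, and it passed in none of the 3 comparisons. Between shSnail and shLoxl2 cells it was at -0.50 (limma adjusted p = 0.125). With the dye effect scaled and the dye-swapped shLoxl2 average in place of the Cy5 arrays, it passed there (-0.85, limma adjusted p = 0.0297). In shSnail cells Krt17 was at -0.31 with full removal (limma adjusted p = 0.262), at -0.67 with the effect scaled (limma adjusted p = 0.0262) and at -0.96 with no correction (limma adjusted p = 0.00545). Krt75, a keratin of the hair follicle's companion layer, was at 0.46 and 0.20 on the shSnail arrays, at 1.01 and 0.16 on the shLoxl2 arrays in Cy5 and at 0.45 and 0.59 on those in Cy3, and did not pass (limma adjusted p = 0.496 in shSnail and 0.0533 in shLoxl2).

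Of the suprabasal keratins, Krt10 was higher in both silenced groups and higher still in shLoxl2. Krt10, the type I keratin of differentiating epidermis (chromosome 11, 99201314 to 99201334, mm8), was at 0.47 and 0.89 on the shSnail arrays, at 1.99 and 2.09 on the shLoxl2 arrays in Cy5 and at 2.17 and 2.35 on those in Cy3. It rose 1.73-fold in shSnail cells (log2 0.79, SE 0.18, limma adjusted p = 0.0341) and 4.43-fold in shLoxl2 cells (log2 2.15, SE 0.14, limma adjusted p = 0.00143). The difference between shSnail and shLoxl2 cells was -1.36 (SE 0.20, limma adjusted p = 0.0217). Krt1, its type II partner, has 2 probes that run on opposite strands of chromosome 15. The minus-strand probe was well above background in no channel of any array and was not tested. The plus-strand probe was at -0.13 and -0.20 on the shSnail arrays, at -0.65 and 0.16 on the shLoxl2 arrays in Cy5 and at 0.37 and 1.01 on those in Cy3. It passed in no comparison, and whether it reads Krt1 mRNA is not known from the files. Krt2, a type II keratin of the upper epidermis, was at 0.59 and 0.37 on the shSnail arrays, at 1.32 and 0.65 on the shLoxl2 arrays in Cy5 and at -0.91 and -1.11 on those in Cy3. Its values turned with the dye, its green channel was well above background on 0 of 6 arrays, and it did not pass.

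Among the basal keratins, the pair Krt5 and Krt14 did not pass against shGFP in either silenced group, and Krt15 rose in both. Krt15, a type I keratin of basal and hair follicle stem cells (chromosome 11, 99948116 to 99948175, mm8), was at 1.04 and 0.96 on the shSnail arrays, at 0.80 and 0.94 on the shLoxl2 arrays in Cy5 and at 1.04 and 0.98 on those in Cy3. All 6 values lay between 0.80 and 1.04. Krt15 rose 2.11-fold in shSnail cells (log2 1.07, SE 0.15, limma adjusted p = 0.00815) and 1.92-fold in shLoxl2 cells (log2 0.94, SE 0.11, limma adjusted p = 0.00553), and their difference of 0.14 (SE 0.16) did not pass (limma adjusted p = 0.589). Krt14, the type I keratin of the basal layer (chromosome 11, 100019459 to 100020064, mm8), was at -0.80 and -0.52 on the shSnail arrays, at 0.25 and 0.23 on the shLoxl2 arrays in Cy5 and at -0.53 and 0.38 on those in Cy3. On the Cy5 arrays the groups were apart, and shSnail was lower than shLoxl2 by -0.90 (SE 0.17, limma adjusted p = 0.0347). That call was lost with the dye effect scaled and the dye-swapped shLoxl2 average in place of the Cy5 arrays (-0.81, limma adjusted p = 0.125). Krt5, the type II partner of Krt14, was at -0.48 and -0.79 on the shSnail arrays, at -0.30 and -0.57 on the shLoxl2 arrays in Cy5 and at -0.23 and -0.51 on those in Cy3. All 6 values were negative, and Krt5 was at -0.60 in shSnail cells (SE 0.18, limma adjusted p = 0.0791) and at -0.40 in shLoxl2 cells (SE 0.14, limma adjusted p = 0.116). In shSnail cells it passed with the dye effect scaled (-0.62, limma adjusted p = 0.0468) and with no correction (-0.63, limma adjusted p = 0.0288). Its red channel was saturated on all 4 shLoxl2 arrays.

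The simple epithelial keratins held the largest fall of the family. Krt23, a type I keratin described in several epithelia and in tumours (chromosome 11, 99294169 to 99294228, mm8), was at -5.25 and -5.49 on the shSnail arrays, at -3.15 and -3.54 on the shLoxl2 arrays in Cy5 and at -3.32 and -3.93 on those in Cy3. Every silenced sample was far below shGFP, and shSnail was below shLoxl2 with no overlap. Krt23 fell 45.6-fold in shSnail cells (log2 -5.51, SE 0.23, limma adjusted p = 0.0017) and 11.2-fold in shLoxl2 cells (log2 -3.49, SE 0.16, limma adjusted p = 0.000582). The difference between shSnail and shLoxl2 cells was 4.06-fold, or -2.02 in log2 units (SE 0.21, limma adjusted p = 0.0164). By size of change Krt23 ranked 1 of the 19752 probes in shSnail and 16 in shLoxl2.

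Krt8, the type II keratin of simple epithelia (chromosome 15, 101824817 to 101824876, mm8), was at 1.69 and 1.78 on the shSnail arrays, at 0.65 and 0.82 on the shLoxl2 arrays in Cy5 and at -0.43 and -0.54 on those in Cy3. In shLoxl2 cells the sign followed the dye, and the dye-swapped average was 0.13 (limma adjusted p = 0.492). The green channel was well above background on 0 of 6 arrays, so on the shSnail arrays shGFP had only an upper bound, the higher of the probe's own signal and the dimmest signal still called well above background. Against it, the shSnail signal of Krt8 was at least 3.33-fold higher without dye correction, which is open to dye bias since both arrays had 1 orientation. The probe's dye effect of 0.61 raised Cy5, so 3.33-fold is no lower bound on the fold in the cells. The fitted value was 2.74-fold with the effect scaled and 2.18-fold with it removed in full. The fitted ratios, whose divisor is that dim channel, were 1.12 in shSnail over shGFP (limma adjusted p = 0.00787) and 0.996 in shSnail over shLoxl2 (limma adjusted p = 0.0252), and they give a direction but no measured fold. The red silenced channel was at 8.87 and 8.91 on the shSnail arrays and at 6.75 and 6.87 on the shLoxl2 arrays in Cy5 (normalized log2 signal), with no overlap. The dim green shGFP channel lay apart in the same direction, at 7.18 and 7.13 against 6.10 and 6.05. The gap in the red channel alone thus does not measure the difference between the silenced cells. Krt18, its type I partner, was at -0.64 and -0.69 on the shSnail arrays, at -0.60 and -0.57 on the shLoxl2 arrays in Cy5 and at 1.05 and 1.24 on those in Cy3. The dye effect of -0.86 exceeded the response, the red channel was saturated on all 4 shLoxl2 arrays, and Krt18 did not pass with the effect removed (log2 0.20, limma adjusted p = 0.421, in shSnail and 0.28, limma adjusted p = 0.162, in shLoxl2). With no correction it passed as lower in shSnail cells (-0.67, limma adjusted p = 0.0119), so these arrays give no settled direction for it.

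Krt19, the small type I keratin of simple and ductal epithelia (chromosome 11, 99957168 to 99957227, mm8), was at -0.68 and -0.60 on the shSnail arrays, at 0.37 and 0.35 on the shLoxl2 arrays in Cy5 and at -0.12 and 0.02 on those in Cy3. Both shSnail values lay below all 4 shLoxl2 values. Krt19 fell 1.79-fold in shSnail cells (log2 -0.84, SE 0.15, limma adjusted p = 0.0151) and was 1.99-fold lower in shSnail than in shLoxl2 cells (log2 -0.99, SE 0.15, limma adjusted p = 0.023), with 0.15 in shLoxl2 over shGFP (limma adjusted p = 0.4). Krt7, a type II keratin of ducts and glands, was at 0.86 and -0.14 on the shSnail arrays, at -0.01 and 0.07 on the shLoxl2 arrays in Cy5 and at 0.23 and 0.53 on those in Cy3. Krt20, a type I keratin of intestinal epithelium, was at 0.43 and -0.26 on the shSnail arrays, at -0.72 and -0.09 on the shLoxl2 arrays in Cy5 and at -0.86 and 0.16 on those in Cy3. Neither passed in any comparison, and both were dim, with the green channel well above background on 0 of 6 arrays.

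Of the mucosal keratins, Krt13 was lower in shSnail than in shLoxl2 cells, and Krt4 and Krt76 changed sign with the dye in shLoxl2 cells. Krt13, a type I keratin of stratified mucosa (chromosome 11, 99937247 to 99937306, mm8), was at -1.14 and -0.95 on the shSnail arrays, at -0.11 and 0.12 on the shLoxl2 arrays in Cy5 and at 0.32 and 1.46 on those in Cy3. It was 2.07-fold lower in shSnail than in shLoxl2 cells (log2 -1.05, SE 0.18, limma adjusted p = 0.0268), and it was at -1.29 (limma adjusted p = 0.0565) with the dye effect scaled and the dye-swapped shLoxl2 average in place of the Cy5 arrays. In shSnail over shGFP it was at -0.60 with the dye effect removed (limma adjusted p = 0.255) and passed with no correction (-1.04, limma adjusted p = 0.0327) and with shLoxl2 replicate 2 left out (-0.83, limma adjusted p = 0.0174). In shLoxl2 over shGFP it was at 0.45 (limma adjusted p = 0.176) and passed with shLoxl2 replicate 1 left out (0.79, limma adjusted p = 0.0407). Krt4, the type II partner of Krt13, was at 0.39 and 0.76 on the shSnail arrays, at 0.81 and 0.60 on the shLoxl2 arrays in Cy5 and at -0.68 and -0.95 on those in Cy3. Krt76, a type II keratin of the palate, was at 0.12 and 0.23 on the shSnail arrays, at 0.40 and 0.81 on the shLoxl2 arrays in Cy5 and at -0.21 and -0.36 on those in Cy3. Both turned with the dye in shLoxl2 cells and passed in no comparison with the effect removed. With no correction Krt4 passed as higher in shSnail cells (0.58, limma adjusted p = 0.0391), on a green channel that was well above background on 0 of 6 arrays.

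Krt80 and Krt85 were the remaining called genes. Krt80, a type II keratin made in many epithelia (chromosome 15, 101176492 to 101176551, mm8), was at -0.22 and -0.10 on the shSnail arrays, at 2.24 and 2.01 on the shLoxl2 arrays in Cy5 and at 2.36 and 0.87 on those in Cy3. It rose 3.65-fold in shLoxl2 cells (log2 1.87, SE 0.21, limma adjusted p = 0.00537). On the shSnail arrays the probe was well above background in 0 of 2 silenced and 1 of 2 control channels, so those ratios near 0 compare dim signals and shSnail cells have only an upper bound. Between the silenced channels alone, with arrays scaled to each other and not divided by shGFP, the shSnail signal was at least 11.7-fold below that of shLoxl2. The shGFP channel was also lower on the shSnail arrays, at 6.83 and 6.51 against 8.01 and 7.94 on the shLoxl2 arrays in Cy5 (normalized log2 signal). The 11.7-fold is therefore no bound on the difference relative to shGFP. The fitted difference of the ratios was -2.28 in log2 units (limma adjusted p = 0.0118). Krt85, a hair keratin of type II (chromosome 15, 101344599 to 101344658, mm8), was at 0.02 and -0.10 on the shSnail arrays, at -0.34 and -0.84 on the shLoxl2 arrays in Cy5 and at 1.91 and 1.48 on those in Cy3. It was called higher in shSnail cells only after the dye effect of -1.14 was removed in full (log2 1.101, SE 0.22, limma adjusted p = 0.0217), and it was at 0.48 with the effect scaled (limma adjusted p = 0.153) and at -0.04 with no correction (limma adjusted p = 0.89). The other 15 tested keratins, mostly of hair and its sheath, were called in no comparison in limma, and at an unadjusted p below 0.05 there was 1 in each comparison. They lay between -0.43 and 0.66 in shSnail over shGFP, -0.42 and 0.30 in shLoxl2 over shGFP, and -0.61 and 0.59 in shSnail over shLoxl2.

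**Figure D2:**
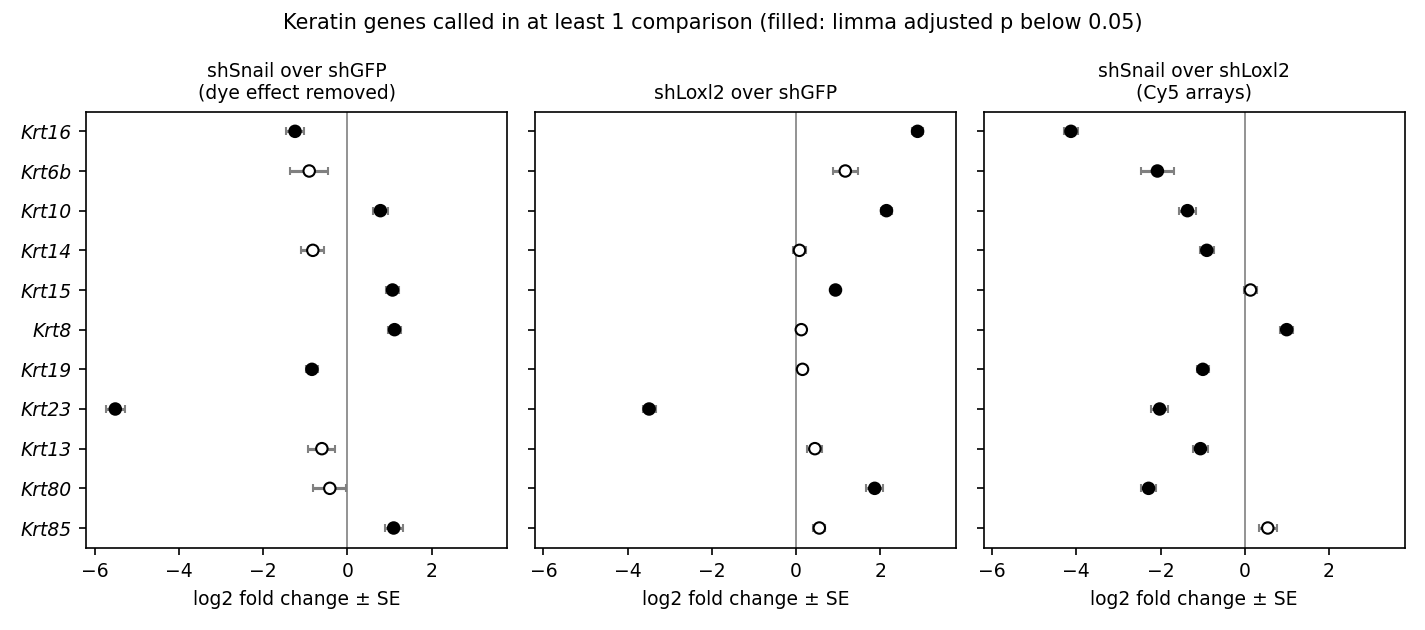
Log2 fold changes with their standard errors are plotted for the 11 keratin genes called in at least 1 comparison, filled where the limma adjusted p is below 0.05, for shSnail over shGFP, shLoxl2 over shGFP and shSnail over shLoxl2. Krt23 is negative in all 3 panels, Krt15 is near 1 in both comparisons with shGFP, and 8 of the 9 filled points of the last panel are negative. In that panel the points of Krt16 (saturated in shLoxl2), Krt80 (dim in shSnail) and Krt8 (dim in shGFP) are fitted ratios and not measured folds.

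The calls were spread over both clusters. On chromosome 11, 5 of 22 tested genes were called in shSnail cells (2 higher, 3 lower) and 4 in shLoxl2 cells (3 higher, 1 lower), shares of 22.7% and 18.2% where 15.2% and 13.9% of all probes were called. On chromosome 15, 2 of 14 were called higher in shSnail cells and 1 in shLoxl2 cells, shares of 14.3% and 7.14%, and none lower in limma, where 1 was lower in each at an unadjusted p below 0.05. Counted by type, with Krt18 moved to type I, 5 of 23 type I and 2 of 13 type II genes were called in shSnail cells, and 4 and 1 in shLoxl2 cells. Between shSnail and shLoxl2 cells, 6 type I genes were lower, and 2 type II genes were lower and 1 higher. Of the pairs named above, no pair had both members called against shGFP in the same silenced group. This does not show that partners moved apart, since Krt1, Krt4, Krt5, Krt8 and Krt18 had uncertain, dim or saturated probes. Krt16 was called in shLoxl2 cells, where Krt6b was near the threshold (limma adjusted p = 0.0562) and passed under some alternatives, as given above. A difference in share between the types was not tested.

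**Figure D3:**
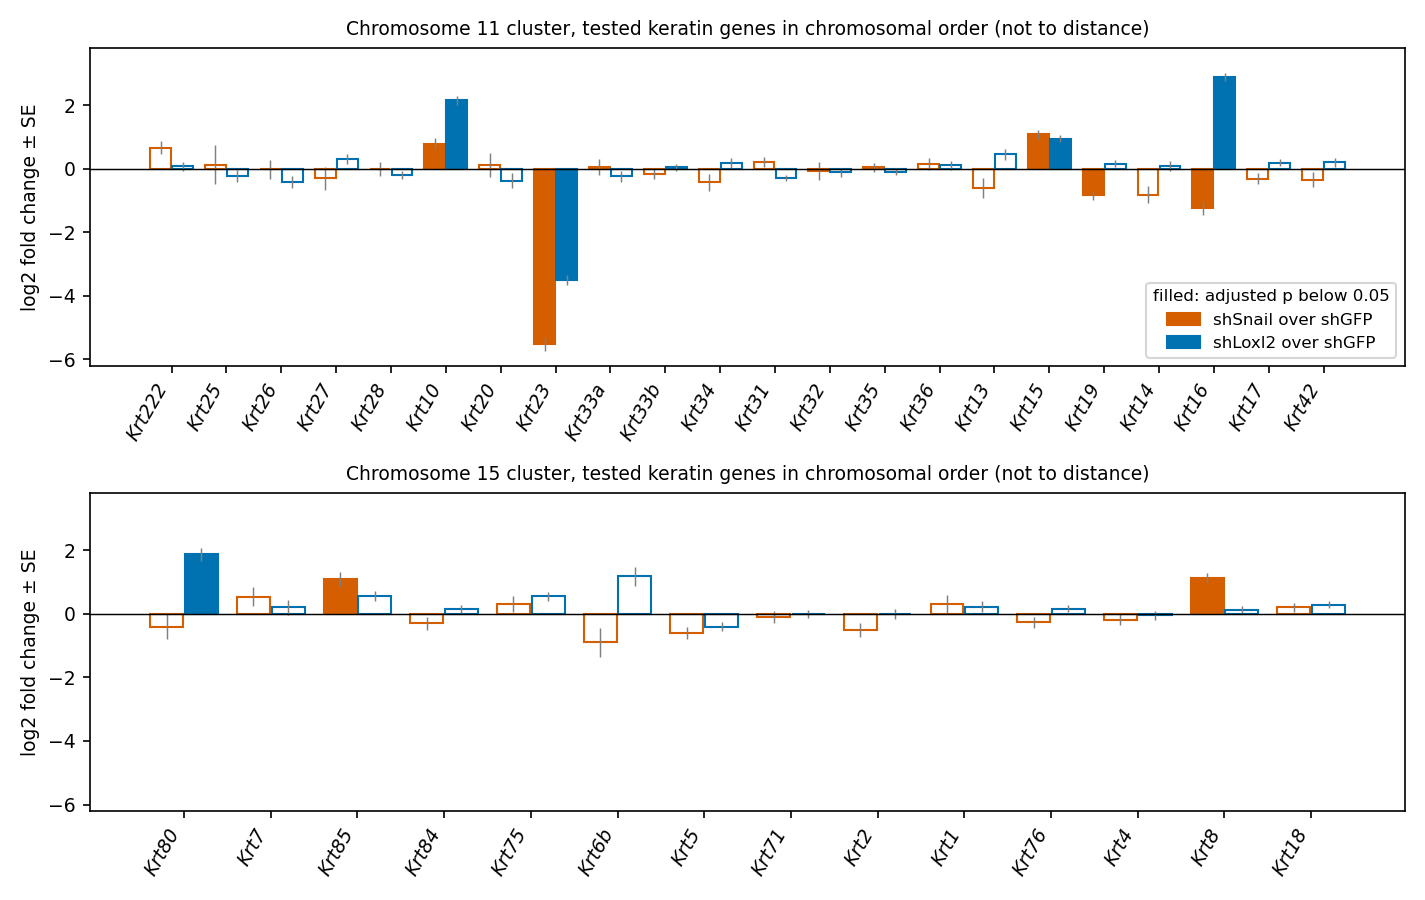
Log2 fold changes with standard errors of the 36 tested keratin genes are drawn in chromosomal order, with shSnail over shGFP at the left and shLoxl2 over shGFP at the right of each pair of bars, filled where called. Called genes such as Krt10, Krt23, Krt15 and Krt16 stand apart from each other on chromosome 11, with uncalled neighbours between most of them.

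Of the 7 keratins called in shSnail cells, 6 kept their call and direction with the dye effect removed in full, scaled or not corrected at all, where 11.7% of all probes did. These were Krt8, Krt10 and Krt15, which were higher, and Krt16, Krt19 and Krt23, which were lower. With no correction 12 of 36 keratins were called, against 22.8% of all probes, and with the effect scaled 8 were, against 15.5%. Over the probes tested, the correlation between a probe's dye effect and its shSnail value was -0.425 with full removal, 0.361 with no correction and -0.000455 with scaling, a description of these arrays, whose points share the same hybridisations.

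**Figure D4:**
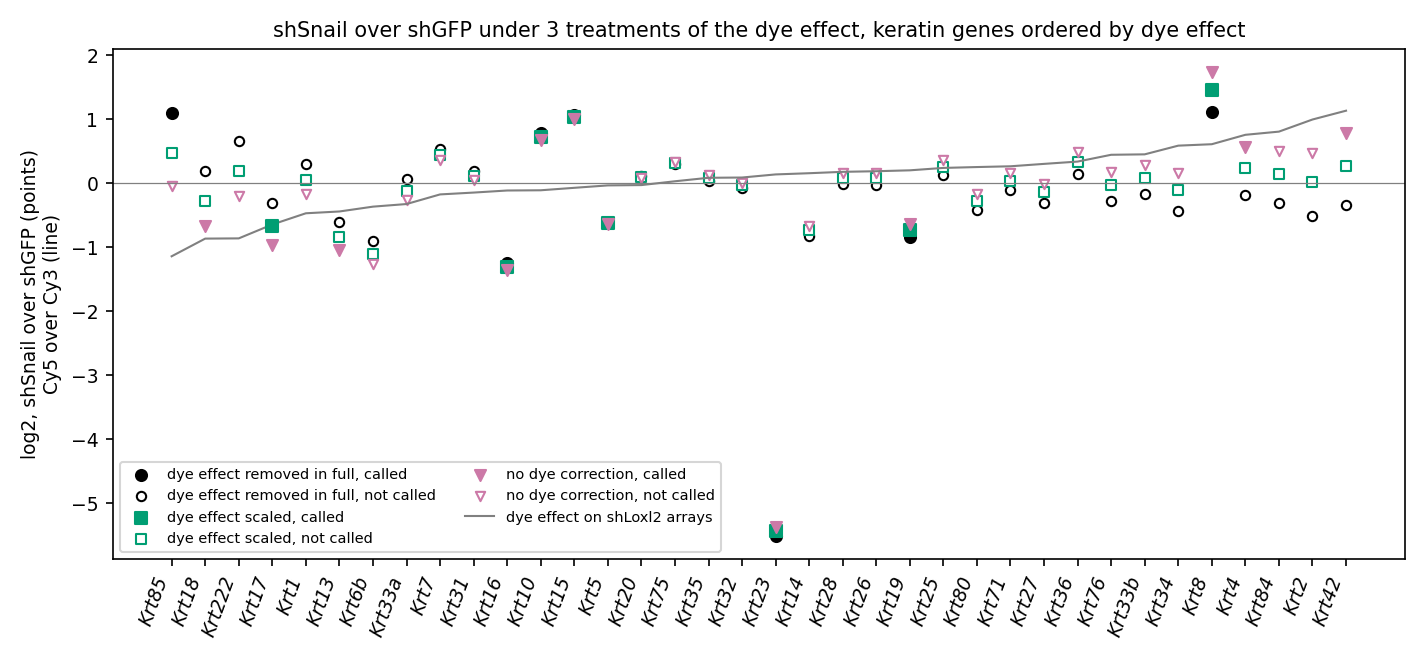
The log2 ratio of shSnail over shGFP is plotted for the 36 tested keratin genes with the dye effect removed in full, scaled or left in, filled where called, with genes ordered by the dye effect on the shLoxl2 arrays (line). The 3 values coincide in the middle of the plot, as for Krt16, Krt10, Krt15 and Krt23, and spread at both ends, where Krt85 is called only after full removal and Krt42 and Krt4 only with no correction.

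Proteins that bind and cross-link keratin filaments were taken as a list of 29 desmosomal and other partner gene names tested, chosen with earlier results known. In shSnail cells 1 was higher and 8 were lower, with a median of -0.39, where 5.88% of all probes were higher and 9.31% lower. In shLoxl2 cells 6 were higher and 2 lower, with a median of 0.09, where 8.08% of all probes were higher and 5.85% lower. Desmoplakin (Dsp), which anchors keratin filaments to desmosomes, was lower in both, at -1.83 (SE 0.16) in shSnail and -0.59 (SE 0.12) in shLoxl2. The desmosomal plakophilins Pkp1 and Pkp3 were at -1.37 (SE 0.14) and -1.03 (SE 0.15) in shSnail cells. Pkp4 and Pnn, of the same list, were also called lower there, at -1.36 (SE 0.15) and -0.75 (SE 0.17). The desmosomal genes that did not pass there were Pkp2 at 0.02, Jup at 0.10, Dsg2 at 0.31, Dsg3 at 0.01, Dsc2 at -0.54 and Dsc3 at -0.62. The partner gene called higher in shSnail cells was Pof1b at 1.15 (SE 0.16). Envoplakin (Evpl), a cornified envelope protein that binds keratin, fell by 0.93 in shSnail cells (SE 0.17) and rose by 1.07 in shLoxl2 cells (SE 0.13), and its difference between them was -1.997 (SE 0.18, limma adjusted p = 0.0158). Periplakin (Ppl) was at -0.28 in shSnail cells, where it did not pass, and rose by 1.09 in shLoxl2 cells (SE 0.11). Between shSnail and shLoxl2 cells, 9 partner genes were lower and 1 was higher, where 8.56% of all probes were lower and 4.24% higher.

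Of 40 transcription factors reported to act on keratin genes, 0 were higher and 9 lower in shSnail cells in limma, and 8 were higher and 3 lower in shLoxl2 cells, where 15.2% and 13.9% of all probes were called. At an unadjusted p below 0.05, 1 was higher and 14 were lower in shSnail cells. Trp63, the p63 factor of basal keratinocytes, was at -1.71 (SE 0.16) in shSnail and -1.15 (SE 0.12) in shLoxl2 cells. Gata3 and Tfap2c were at -1.31 (SE 0.14) and -1.70 (SE 0.27) in shSnail cells. The differentiation factors Ehf, Zfp750 and Ovol1 rose by 1.5 (SE 0.17), 1.34 (SE 0.12) and 1.01 (SE 0.15) in shLoxl2 cells, and Maf rose by 1.71 (SE 0.18). Set directly against shLoxl2, shSnail cells had 12 of the 40 lower and 0 higher in limma, where 12.8% of all probes were called (20 lower and 0 higher at an unadjusted p below 0.05). Among them was Ehf at -1.78 (SE 0.15). Of 24 tested genes named Krtap, Krtcap or Krtdap, 2 were higher and 1 lower in shSnail cells, where 15.2% of all probes were called. In shLoxl2 cells 1 was higher, where 13.9% of all probes were called. The higher ones were Krtap14 (1.12, SE 0.17) and Krtcap2 (0.94, SE 0.16) in shSnail cells and Krtcap3 (0.85, SE 0.12) in shLoxl2 cells. Of the called genes only Krtap14 is a keratin-associated protein by its name. The lower one was Krtdap, a keratinocyte differentiation-associated protein, at -2.29 in shSnail over shGFP (SE 0.24, limma adjusted p = 0.0042). All 3 lists were chosen with earlier results known, and their counts are a description. Probes that the files name otherwise but RefSeq assigns to Krt12, Krt86, Krt88 and Krt90 fell outside the rule, and none was called.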

How the data were processed

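Intensity values of both channels of 6 2-colour Agilent arrays, with a log10 ratio per spot, were deposited as Agilent's Feature Extraction software made them. Per the file headers its version was 9.5.1.1, whereas the submitters' processing notes give 6.1.1. The authors' value table repeats the log10 ratios. Its column for shSnail replicate 2 matched the scanner file of replicate 1, so it served only as an alternative, with 1 shSnail array. Probe positions are in mm8, per the file headers.

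Mean intensities were corrected by normexp (offset 50) and normalized by loess in limma 3.58.1 (R 4.3.3, data.table version 1.17.8), with control and outlier spots at weight 0. A probe was tested if either channel was well above background on 2 or more arrays, with lmFit and eBayes, Benjamini-Hochberg adjusted. Dye-swapped shLoxl2 arrays were averaged. The shSnail fit used all 6 arrays singly with a dye term (a fit with each shLoxl2 number once was added after the data were seen), and shSnail over shLoxl2 used the 4 Cy5 arrays. The fits were tested on simulated data. The text names called members and fixed role sets with their values and the other members by range. The members, sets and lists were chosen with earlier results of these data known. Alternatives changed background, filter, dye treatment and samples.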

Additional observations from a re-analysis of the deposited data

How the results depend on the processing

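The number of keratins called was 7 for shSnail over shGFP, 5 for shLoxl2 over shGFP and 9 for shSnail over shLoxl2. With the authors' value table it was 0 in each, where shSnail had 1 array. The log2 folds of shLoxl2 over shGFP (4 arrays) were there 2.89 for Krt16 (limma adjusted p = 0.105), -3.78 for Krt23 and 2.64 for Krt10. Leaving out 1 sample at a time gave 1 to 14 for shSnail over shGFP, 6 to 8 for shLoxl2 over shGFP and 1 to 14 for shSnail over shLoxl2. The count of 14 came without shLoxl2 replicate 2 in both comparisons and the count of 1 without either shSnail array. With no dye correction 12 were called in shSnail, and 9 with each shLoxl2 number entered once, an alternative added after seeing the data. In shLoxl2 the count was 8 with a stricter filter on dim probes, 13 with shLoxl2 in Cy5 only and 14 with shLoxl2 in Cy3 only. The scanner software's log ratios, centred, gave 5 for shSnail over shLoxl2. With the replicate number as a block, which only names the samples here (the numbers' deviations correlated at 0.323 over all probes), the counts were 5 in shSnail, 9 in shLoxl2 and 9 between them.

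In shLoxl2 over shGFP fitted in 1 orientation, some keratins passed with their sign turned from the main fit. These were Krt18 (-0.587), Krt2 (0.985), Krt222 (-0.791) and Krt4 (0.704) in Cy5 and Krt84 (-0.674) and Krt42 (-0.941) in Cy3. Signs that turned without passing, such as those of Krt85 (-0.587) and Krt17 (-0.456) in Cy5, are not all listed. With no dye correction in shSnail, Krt18 was at -0.665, Krt85 at -0.0397, Krt42 at 0.792 and Krt4 at 0.575. The scanner software's log ratios gave -1.16 for Krt32 between shSnail and shLoxl2. Over all probes, the scanner software's log ratios shifted the median by -0.277 in shSnail over shGFP and -0.278 between shSnail and shLoxl2. The causes were not tested, beyond the dye orientation that these alternatives isolate. Slide or scan day as a block was not run, since each scan day held 1 silenced group.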
